A study of Mus musculus with 2744 samples.

Results

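The DNA replication and S phase genes described here are 46 genes whose products license replication origins, open and copy DNA, supply nucleotides and histones, or drive entry into S phase. They were taken by symbol from the 23968 genes of the deposited tables, and all 46 were present. The study sequenced RNA of 2744 single mouse cells in 2 experiments, called main and pilot, along the route from embryonic stem cells to motor neurons in culture. Embryoid bodies were dissociated with papain, single cells were sorted into wells, and polyadenylated RNA was counted by a modified CEL-seq protocol, in which the RNA of each cell is barcoded and amplified by transcription. The groups were Day 2, Day 3, Day 4, Day 5 and Day 6 without an eGFP label and eGFP++ cells of Day 6, each with cells of both experiments, and eGFP+ cells of Day 6, which filled a single plate in the main one. All groups share the stem cell origin and the same differentiation; the stem cell line, its genotype and the reporter behind the eGFP labels are not stated in the sources used here.

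Of these cells, 2448 had at least 500 detected genes and were kept. Reads were summed over the kept cells of each group and experiment, giving 13 sums of 16370502 to 100972780 gene reads. Each group thus has n = 2 experiments, except eGFP+ with 1. CPM is the usual counts per 1000000 gene reads of a sum. CEL-seq reads come from transcript ends and are not scaled by length. As a check of the labels, the summed level of 12 pluripotency markers was 4913 and 3733 CPM on Day 2 and 22.9 and 40.3 CPM on Day 6, and 14 neuron markers reached 14934 and 17190 CPM in eGFP++ cells. Markers of other cell types stayed at 35.98 to 341.2 CPM for 12 extraembryonic endoderm genes, 0 to 39.4 CPM for 10 mesoderm genes and 4.71 to 301.6 CPM for 7 glial genes, the first highest on Day 4 of both experiments and the last in the pilot eGFP++ sum; their part in the results was not tested. Of the 35 plates, 3 stood apart: a main Day 3 plate with a median of 1220 detected genes per cell, and a main and a pilot Day 4 plate on which 46.9% and 40% of wells were left out. The design text calls the 2 experiments biological replicates; whether the plates of an experiment came from separate cultures is not given. Spike-in RNA took 2.98% and 4.75% of Day 2 reads and 15.6% and 15.4% of Day 6 reads.

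In each cell cycle, the origin recognition complex, Cdc6 and Cdt1 load the Mcm helicase onto DNA before S phase, and geminin then holds Cdt1 back. Cyclin E with Cdk2 and further factors switch the helicase on, primase and polymerases copy the strands behind it, and the sliding clamp Pcna keeps the polymerases on DNA. Transcription factors of the E2F family activate many of these genes towards S phase, and cells that become motor neurons leave the cell cycle for good.

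The summed level of the 46 genes was highest on Day 2 and lowest in eGFP++ cells in both experiments. It was 6674, 5437, 4432, 5522 and 2629 CPM on Days 2 to 6 of the main experiment, with 2628 CPM in eGFP+ and 1079 CPM in eGFP++ cells. In the pilot it was 7066, 6520, 5254, 5783 and 3172 CPM on Days 2 to 6 and 1634 CPM in eGFP++ cells. The level was thus 2.54-fold and 2.23-fold lower on Day 6 than on Day 2, and 2.44-fold and 1.94-fold lower in eGFP++ cells than on Day 6. In CPM, most of the decline from Day 2 to Day 6 lay between Day 5 and Day 6, at 2.1-fold and 1.82-fold. Day 4 was followed by a level 1.25-fold and 1.101-fold higher on Day 5. Without the 3 plates that stand apart, a choice made after seeing the data, the pilot Day 5 sum was 1.15-fold below Day 4 instead. In sums over cells, fewer cells with these transcripts and less RNA per cell cannot be told apart.

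**Figure D1:**
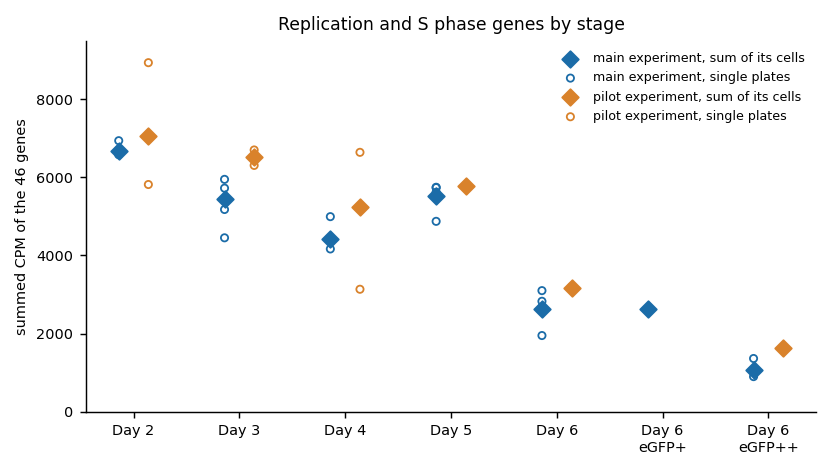
Summed CPM of the 46 replication and S phase genes (y axis, starting at 0) by stage (x axis). Filled diamonds are the sums over all kept cells of an experiment and open circles are its single plates; on Day 6 the diamonds lie at 2629 and 3172 CPM, below all plates of Day 2, and in eGFP++ cells at 1079 and 1634 CPM.

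Against spike-in RNA the decline from Day 2 to Day 6 was steeper. That from Day 6 to eGFP++ cells was smaller, at 1.78-fold and 1.28-fold against 2.44-fold and 1.94-fold in CPM. In the fits described below, the median over all genes on the spike-in scale was -2.05 log2 units from Day 2 to Day 6, against -3.50 for the members. Per 1000 spike-in reads, the main cells held 217.4, 83.3, 41.4, 53.4 and 14.2 reads of the 46 genes on Days 2 to 6, 11.2 in eGFP+ and 7.998 in eGFP++ cells. The pilot cells held 141.7, 181.9, 95.3, 55.96 and 17.4 reads on these days and 13.5 in eGFP++ cells. On this scale the pilot Day 3 value exceeded that of Day 2, and the pilot Day 5 value lay below that of Day 4. The log2 change from Day 5 to Day 6 was -1.91 in the main experiment and -1.688 in the pilot, out of -3.935 and -3.028 from Day 2 to Day 6, so more than 50% of the main decline lay before Day 5. The order of Day 2, Day 6 and eGFP++ was the same as in CPM.

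Each gene was tested with edgeR's quasi-likelihood test on 12 sums (all but eGFP+), with the experiment as a term and Benjamini-Hochberg adjustment over all genes tested, which included all 46. Values of log2 change are fitted and given ± their standard error, and a gene is called at an adjusted p under 0.05. The line fitted on the day over Days 2 to 6 called 4 members lower with time, Ung, Mcm2, Mcm3 and Ccne1, and none higher; of all 15971 genes tested 2.21% were called lower. DESeq2 called 16 members lower (7.18% of all genes), and 26 had an unadjusted p under 0.05 in edgeR (19.5%). The slope was negative in all 46 (48.3% of all genes), with a median of -0.28 log2 units per day against 0.02 over all genes. Among the sums left out in turn, 1 member was called without either Day 2 sum, the main Day 3 sum or the main Day 6 sum, 2 without the main Day 4 sum, and 0 without the pilot Day 6 sum, where 0.413% to 1.19% of all genes were called lower in these 6 fits. In the comparison of Day 6 with Day 2, edgeR called 0 members and DESeq2 9, all lower, with an unadjusted edgeR p under 0.05 for 15 (13.7% of all genes), where 0.243% of all 16080 genes were called lower (0.572% higher) by edgeR and 4.55% lower by DESeq2. The fitted change was negative for 45 of the 46 (46.3% of all genes), the exception being Ccne2. The median of the members was -1.36 against 0.17 over all genes. Both Day 6 sums lay below both Day 2 sums in 33 of 46 members, as they did in 19.3% of all genes. The 13 others were Gmnn, Gins3, Gins4, Pola1, Rfc2, Rfc3, Rfc4, Lig1, Slbp, Chaf1a, Tipin, Ccne2 and Cdk2.

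Between neighbouring days edgeR called 0 members, where 0.0% of all genes were called lower in each comparison and at most 0.0498% higher, and DESeq2 also called 0, where it called 0.28%, 0.504%, 0.454% and 0.485% of all genes lower in turn. At an unadjusted p under 0.05 there were 1 member, Cdca7, from Day 2 to Day 3 (3.65% of all genes), 1, Rpa1, from Day 3 to Day 4 (2.69%), 0 from Day 4 to Day 5 (3.7%) and 6 from Day 5 to Day 6 (3.17%). The 6 were Mcm3, Mcm6, Pcna, Pold1, Rpa3 and Ung, all lower on Day 6. From Day 5 to Day 6 all 46 fitted changes were negative (50.3% of all genes) and both Day 6 sums lay below both Day 5 sums in 37 (19.4% of all genes), with a median of -0.93 against -0.00197 over all genes. Day 5 against Day 4 was the interval with most positive fits, at 31 of 46 and a median of 0.29. Over all genes 45.8% of fits were negative and the median was 0.13. The sign of the members' median turned when spike-in reads set the scale (-0.23, against -0.22 over all genes). It also turned when cells with a read were counted (-0.00688, against 0.02). These comparisons share sums with each other and with that of Day 6 against Day 2.

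**Figure D2:**
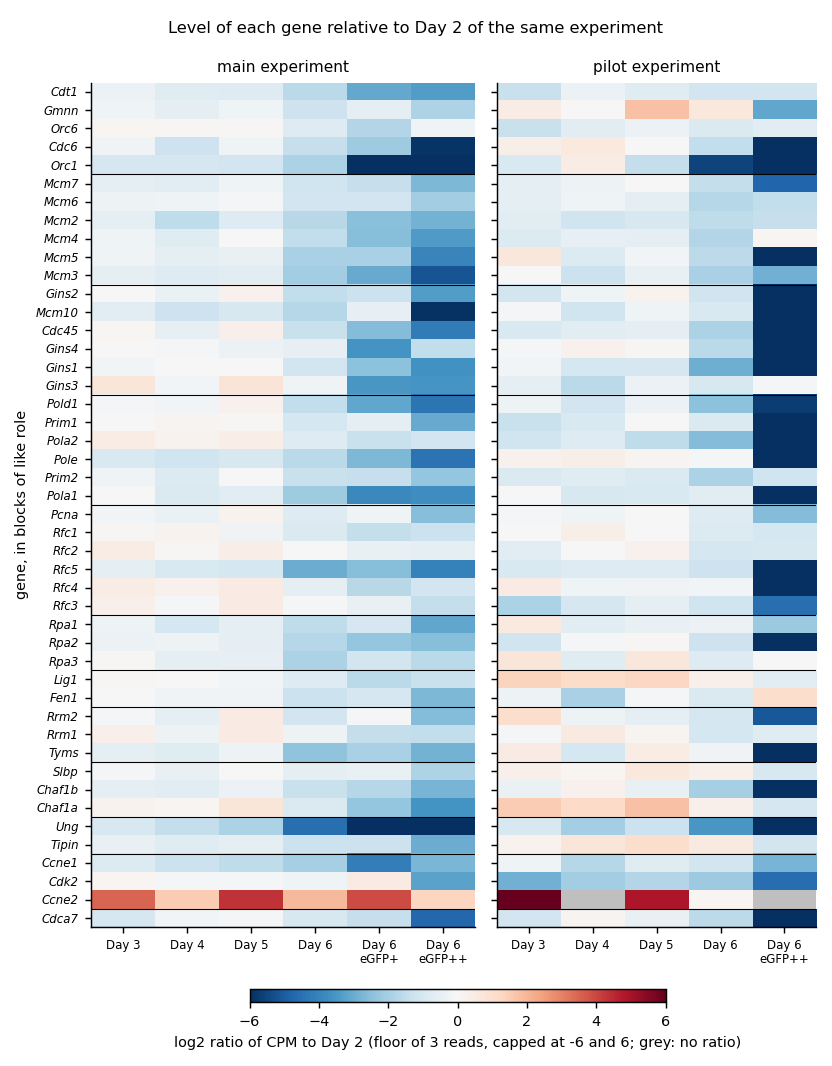
Log2 ratio of each gene's CPM to Day 2 of the same experiment (colour; a floor of 3 reads was used for lower sums), for the 46 genes (rows, in blocks of like role) and the later stages (columns) of the main (left) and pilot (right) experiments. Blue, meaning lower than Day 2, deepens at Day 6 and in eGFP++ cells, and grey marks pairs of sums that both held 3 reads or fewer. Ccne2 is red in the main experiment and on pilot Day 3 and Day 5, with only 19 and 0 reads in its Day 2 sums.

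Many members share promoter features that their choice did not use. RefSeq promoter windows of GRCm38.p6, 250 bases before to 50 after a start, were matched by symbol for 36 of the 46. Not matched were Gins1, Gins2, Gins4, Mcm4, Pole, Prim2, Rfc2, Tipin, Gmnn and Ccne2. One of the E2F words TTTCCCGC, TTTCGCGC, TTTGCCGC and TTTGGCGC, searched on both strands and allowed to overlap, stood in 14 of the 36 (38.9%), against 2.61% of all 27025 genes of the table and 33.3% of 39 other replication genes. The word TTTGAA of the CHR element, known from genes of mitosis, stood in 11.1% of the members and 20.2% of all genes, against 70.6% of 34 G2/M genes, 2.94% of which held an E2F word. CCAAT stood in 63.9% of the members and 41.1% of all genes. The windows of the members were richer in G and C, at a median of 62.2% against 52.7% of bases, and the part of this in the word counts was not tested. The median slope was -0.32 per day for the 14 members with an E2F word and -0.28 for the 22 without one, with ranges of -0.63 to -0.12 and -0.83 to -0.03 that overlap. Ung, Mcm2 and Ccne1, which fell, held none in this window. A match of letters is not a binding site, and binding was not measured here.

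Shown here are the 4 members with an E2F word that had the smallest p for the slope, 5′ to 3′ on the gene's strand with the words in capitals. In Mcm5 and Mcm6, 2 of the words lie on opposite strands and overlap by 4 bases. GENCODE M21 places the first base of Mcm5 60 and of Mcm6 41 bases further downstream than RefSeq does.
Mcm3, minus strand, chr1:20820283-20820562, from 250 bases before to 30 after the start, with a word 20 bases after it and a further one at base 39, past the printed end: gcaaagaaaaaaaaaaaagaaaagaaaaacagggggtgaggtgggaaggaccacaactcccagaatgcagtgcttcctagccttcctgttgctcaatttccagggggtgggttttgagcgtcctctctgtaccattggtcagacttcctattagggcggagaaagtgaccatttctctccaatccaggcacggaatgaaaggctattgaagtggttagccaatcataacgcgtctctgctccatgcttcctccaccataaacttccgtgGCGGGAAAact
Mcm5, plus strand, chr8:75109259-75109538, the same span, with 2 overlapping words: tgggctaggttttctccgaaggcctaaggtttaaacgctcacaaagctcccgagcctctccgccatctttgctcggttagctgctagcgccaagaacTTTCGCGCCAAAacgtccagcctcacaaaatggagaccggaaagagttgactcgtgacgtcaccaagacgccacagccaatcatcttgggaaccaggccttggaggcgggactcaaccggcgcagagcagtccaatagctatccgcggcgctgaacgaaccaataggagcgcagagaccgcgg
Mcm6, minus strand, chr1:128359676-128359955, the same span, with 2 overlapping words and a further one 47 bases before the start: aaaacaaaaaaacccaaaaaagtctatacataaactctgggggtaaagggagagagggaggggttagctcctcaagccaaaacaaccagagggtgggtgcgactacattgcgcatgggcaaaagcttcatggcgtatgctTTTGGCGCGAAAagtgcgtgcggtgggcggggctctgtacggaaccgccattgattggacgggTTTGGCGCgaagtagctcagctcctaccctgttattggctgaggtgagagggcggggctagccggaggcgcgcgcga
Cdt1, plus strand, chr8:122568035-122568064, bases 21 to 50 after the start, with the word at base 33: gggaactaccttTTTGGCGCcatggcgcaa

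Among the genes of origin licensing, Cdt1, which helps to load the helicase, lay at 219.005, 173.7, 131.7, 127.8 and 70.4 CPM on Days 2 to 6 of the main experiment, 26.2 in eGFP+ and 21.2 in eGFP++ cells, and 244.4, 98.2, 189.7, 148.4 and 111.8 CPM with 115.3 in eGFP++ cells of the pilot. Both Day 6 sums were below both Day 2 sums, while the pilot eGFP++ sum was as high as the pilot Day 6 sum. Cdc6, the loading ATPase, lay at 80.2, 68.1, 33.97, 68.01 and 31.01 CPM from Day 2 to Day 6 in the main experiment (18.2 in eGFP+, 1.38 in eGFP++) and 49.3, 62.7, 74.5, 48.2 and 17.8 CPM in the pilot (0.183 in eGFP++). Its eGFP++ sums held 71 and 3 reads, and it fell in eGFP++ cells against Day 4 (edgeR log2 change -6.27 ± 0.97, adjusted p = 0.0116). In CPM it was 24.6-fold lower in the main experiment and, with only 3 reads, 406.3-fold lower in the pilot (95% Poisson interval 139.03 to 1970, counting error only). Orc1, the largest subunit of the origin recognition complex, had 35.9, 18.1, 18.02, 15.9 and 9.49 CPM on Days 2 to 6 of the main experiment, 0 in eGFP+ and 0.272 in eGFP++ cells, and 51.7, 27.3, 69.9, 19.2 and 1.09 CPM with 0 in eGFP++ cells of the pilot. Orc1 also fell against Day 4 (edgeR adjusted p = 0.0453), by 66.3-fold in the main experiment and at least 381.4-fold in the pilot, where no read was left and a floor of 3 reads was used. In the pilot Day 4 sum, 44.4% of the Orc1 reads came from 1 cell. Gmnn, which encodes geminin, stood at 118.05, 97.7, 80.5, 98.5 and 50.2 CPM from Day 2 to Day 6 in the main experiment (81.98 in eGFP+, 32.3 in eGFP++) and 36.5, 50.05, 36.1, 121.7 and 56.4 CPM in the pilot (4.15 in eGFP++), with no common course in the 2 experiments. Orc6, a further subunit of the origin recognition complex, stood at 66.97, 73.8, 69.2, 71.2 and 39.5 CPM on Days 2 to 6 of the main experiment, 19.9 in eGFP+ and 56.1 in eGFP++ cells, and 90.5, 36.1, 58.3, 70.8 and 49.5 CPM with 56.4 in eGFP++ cells of the pilot. Its eGFP++ sums thus exceeded both Day 6 sums.

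The 6 subunits of the Mcm helicase summed to 1248, 932, 776 and 984 CPM on Days 2 to 5 of the main experiment and 1722, 1325, 1123, 1252 and 562 CPM on Days 2 to 6 of the pilot. On main Day 6 each of the 6 lay between its main Day 5 and main eGFP++ levels. In eGFP++ cells they summed to 163.2 and 584 CPM, the pilot value being above that of pilot Day 6. Mcm2 had 200.2, 138.3, 69.4, 115.9 and 63.3 CPM on Days 2 to 6 of the main experiment, 35.1 in eGFP+ and 28.5 in eGFP++ cells, and 410.7, 264.6, 181.1, 209.1 and 144.99 CPM with 155.6 in eGFP++ cells of the pilot. Mcm3 had 173.7, 119.2, 100.2, 108.1 and 41.3 CPM from Day 2 to Day 6 in the main experiment (21.4 in eGFP+, 4.86 in eGFP++) and 186.4, 187.9, 76.96, 135.2 and 47.7 CPM in the pilot (25.2 in eGFP++). Both fell over Days 2 to 6, by 0.38 ± 0.08 log2 units a day for Mcm2 and 0.45 ± 0.11 for Mcm3 (edgeR adjusted p = 0.0264 and 0.0360), and in both the Day 6 sums lay below all Day 2 sums. Mcm7 lay at 371.1, 257.4, 239.2, 309.6 and 160.7 CPM on Days 2 to 6 of the main experiment, 143.6 in eGFP+ and 56.7 in eGFP++ cells, and 357.9, 241.3, 288.7, 359.3 and 132.6 CPM with 13.1 in eGFP++ cells of the pilot. Mcm5 lay at 173.8, 148.2, 116.8, 129.5 and 45.4 CPM from Day 2 to Day 6 in the main experiment (45.5 in eGFP+, 11.2 in eGFP++) and 154.2, 247.5, 87.4, 139.1 and 52.8 CPM in the pilot (1.40 in eGFP++). Mcm7 and Mcm5 fell in eGFP++ cells against Day 4, by 2.98 ± 0.57 and 4.07 ± 0.81 log2 units (edgeR adjusted p = 0.0307 and 0.0350), with eGFP++ sums below all unlabelled sums. Mcm6 was measured at 220.4, 178.9, 185.3, 208.8 and 97.8 CPM on Days 2 to 6 of the main experiment, 99.5 in eGFP+ and 51.4 in eGFP++ cells, and 379.9, 253.2, 320.9, 254.5 and 114.3 CPM with 136.2 in eGFP++ cells of the pilot. Its eGFP++ change did not pass (edgeR adjusted p = 0.110), while DESeq2 called Mcm6 lower in eGFP++ cells against Day 4. The pilot eGFP++ sum of Mcm6 exceeded the pilot Day 6 sum, as did those of Mcm2 and Mcm4. Mcm4 ranged from 10.5 CPM in the main to 252.2 CPM in the pilot eGFP++ sum, where 1 of 39 cells gave 53.1% of its reads.

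Of the factors that activate the helicase, Mcm10 lay at 80.4, 50.5, 34.2, 41.4 and 24.2 CPM on Days 2 to 6 of the main experiment, 57.7 in eGFP+ and 1.34 in eGFP++ cells, and 84.97, 79.6, 37.6, 71.8 and 45.5 CPM with 0.55 in eGFP++ cells of the pilot. It fell in eGFP++ cells against Day 4 (edgeR log2 change -5.12 ± 0.77, adjusted p = 0.0103), and its eGFP++ sums of 69 and 9 reads did not overlap any other sum. Gins2, part of the GINS complex of the active helicase, stood at 173.9, 170.6, 130.3, 208.7 and 61.9 CPM from Day 2 to Day 6 in the main experiment (70.8 in eGFP+, 17.1 in eGFP++) and 130.8, 60.4, 108.4, 149.1 and 57.8 CPM in the pilot (0.672 in eGFP++). The eGFP++ sums were again the lowest of each experiment, but the change did not pass (edgeR adjusted p = 0.0650). DESeq2 called Gins2 lower in eGFP++ cells against both Day 6 and Day 4. Cdc45, which joins Mcm and GINS in that helicase, stood at 41.7, 44.9, 30.1, 52.1 and 16.4 CPM from Day 2 to Day 6 in the main experiment (6.98 in eGFP+, 2.31 in eGFP++) and 80.8, 42.8, 52.1, 53.1 and 21.8 CPM in the pilot (0.122 in eGFP++). Its Day 6 sums were below both Day 2 sums and its eGFP++ sums below both Day 6 sums. In eGFP++ cells DESeq2 called Cdc45 lower against Day 6 and Day 4, and edgeR did not. Gins1 and Gins4 did not exceed 43.7 CPM and Gins3 not 12.03 CPM in any sum.

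Among polymerases and primase, Pold1, the catalytic subunit of polymerase delta, lay at 59.1, 53.8, 52.4, 70.01 and 21.4 CPM on Days 2 to 6 of the main experiment, 6.74 in eGFP+ and 2.84 in eGFP++ cells, and 119.3, 96.4, 54.3, 94.4 and 21.5 CPM with 2.32 in eGFP++ cells of the pilot. It fell in eGFP++ cells against Day 4 (edgeR log2 change -4.32 ± 0.64, adjusted p = 0.00983), and both its Day 6 sums were below all earlier ones. Prim1, the catalytic primase subunit, stood at 76.8, 75.6, 85.3, 80.9 and 36.9 CPM from Day 2 to Day 6 in the main experiment (51.8 in eGFP+, 9.54 in eGFP++) and 66.5, 26.4, 35.7, 67.3 and 36.1 CPM in the pilot (0.611 in eGFP++). Pola2, a subunit of the polymerase alpha complex that carries primase, stood at 40.9, 56.4, 47.9, 53.7 and 24.02 CPM on Days 2 to 6 of the main experiment, 16.2 in eGFP+ and 18.6 in eGFP++ cells, and 105.999, 46.2, 61.8, 36.9 and 17.6 CPM with 1.40 in eGFP++ cells of the pilot. In both genes the Day 6 sums were below both Day 2 sums, and the pilot eGFP++ sums were lower still. The 6 genes of this role summed to 114.05 and 145.07 CPM on Day 6 and to 40.7 and 25.05 CPM in eGFP++ cells.

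Pcna, the sliding clamp, lay at 565, 512, 424.4, 658 and 328.3 CPM on Days 2 to 6 of the main experiment, 478.4 in eGFP+ and 95.8 in eGFP++ cells, and 486, 460.9, 405.9, 474.98 and 280.2 CPM with 78.9 in eGFP++ cells of the pilot. It fell in eGFP++ cells against Day 4, by 2.22 ± 0.33 log2 units (edgeR adjusted p = 0.00983), with like folds of 4.43 and 5.14 in the 2 experiments. Its Day 6 sums of 328.3 and 280.2 CPM lay above both eGFP++ sums, and the single eGFP+ plate, at 478.4 CPM, above both Day 6 sums. The subunits of the clamp loader changed less evenly. Rfc1, its large subunit, had 90.3, 95.7, 103.9, 76.9 and 50.3 CPM from Day 2 to Day 6 in the main experiment (33.5 in eGFP+, 37.3 in eGFP++) and 148.2, 148.8, 186.2, 149.95 and 83.4 CPM in the pilot (70.8 in eGFP++), and Rfc2, a small one, 58.4, 78.9, 61.8, 78.1 and 59.5 CPM on Days 2 to 6 of the main experiment, 43.3 in eGFP+ and 38.7 in eGFP++ cells, and 78.4, 48.8, 79.5, 93.5 and 37.8 CPM with 40.9 in eGFP++ cells of the pilot. Rfc1 thus spanned 33.5 to 186.2 CPM and Rfc2 37.8 to 93.5 CPM over the sums, and edgeR called no Rfc gene on these 12 sums. DESeq2 called Rfc1 lower on Day 6 than on Day 2, Rfc5 lower in eGFP++ cells than on Day 6 and by slope, and Rfc1, Rfc3 and Rfc5 lower in eGFP++ cells than on Day 4. Rfc3, Rfc4 and Rfc5, the other small subunits, ranged from 0.305 to 148.2 CPM, with the lowest value in eGFP++ cells for each. The genome annotation lists 2 Pcna pseudogenes and 1 Tyms pseudogene, so reads of these genes may have been shared with copies.

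Of the 3 subunits of replication protein A, which coats single-stranded DNA, Rpa1 had 588, 469.7, 278.7, 386.8 and 202.6 CPM on Days 2 to 6 of the main experiment, 289.7 in eGFP+ and 67.02 in eGFP++ cells, and 391.1, 581, 240.4, 288.6 and 310.96 CPM with 84.5 in eGFP++ cells of the pilot. Its pilot Day 3 sum was the highest of that experiment and its pilot Day 6 sum exceeded those of Days 4 and 5. Rpa2 had 250.02, 196.7, 201.8, 168.2 and 77.3 CPM from Day 2 to Day 6 in the main experiment (49.5 in eGFP+, 42.2 in eGFP++) and 155.9, 67.3, 149.7, 164.4 and 66.1 CPM in the pilot (0.977 in eGFP++), and its eGFP++ sums were below all unlabelled ones. Rpa3 had 196.3, 204.3, 131.5, 139.5 and 52.8 CPM from Day 2 to Day 6 in the main experiment (92.8 in eGFP+, 63.6 in eGFP++) and 86.5, 141.9, 51.6, 140.6 and 51.3 CPM in the pilot (88.3 in eGFP++), and its eGFP++ sums exceeded both Day 6 sums. For lagging-strand processing, Lig1, the ligase that seals Okazaki fragments, had 198.1, 207.2, 200.7, 174.7 and 116.3 CPM from Day 2 to Day 6 in the main experiment (64.2 in eGFP+, 78.2 in eGFP++) and 132.5, 334.4, 280.1, 317.2 and 162.9 CPM in the pilot (83.1 in eGFP++). It was nearly level to Day 4 in the main experiment, whereas in the pilot Day 2 was the lowest of the unlabelled days. Fen1, the nuclease that trims their flaps, had 69.4, 68.9, 59.8, 60.04 and 28.5 CPM from Day 2 to Day 6 in the main experiment (35.03 in eGFP+, 10.6 in eGFP++) and 57.02, 46.4, 14.6, 55.2 and 31.3 CPM in the pilot (118.3 in eGFP++). The Day 6 sums of Fen1 were below both Day 2 sums, while its eGFP++ sums lay on either side of Day 6, and 44.6% of the pilot eGFP++ reads came from 1 cell.

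For nucleotide supply, Rrm2, the small and cell-cycle regulated subunit of ribonucleotide reductase, had 402.03, 387.6, 264.6, 558 and 179.4 CPM on Days 2 to 6 of the main experiment, 371.2 in eGFP+ and 66.9 in eGFP++ cells, and 584, 1209, 472.1, 384.5 and 287.5 CPM with 17.3 in eGFP++ cells of the pilot. Day 6 was below Day 5 in both experiments, and the pilot Day 3 sum stood far above all others. Rrm1, the large subunit, had 118.99, 146.1, 95.3, 169.5 and 97.8 CPM from Day 2 to Day 6 in the main experiment (44.4 in eGFP+, 42.97 in eGFP++) and 210.97, 195.4, 308.3, 234.4 and 100.9 CPM in the pilot (128.9 in eGFP++). Tyms, thymidylate synthase, had 70.99, 48.5, 42.9, 58.1 and 13.5 CPM from Day 2 to Day 6 in the main experiment (18.5 in eGFP+, 9.85 in eGFP++) and 49.3, 69.6, 23.5, 66.6 and 42.3 CPM in the pilot (0.305 in eGFP++). Both genes were lower on Day 6 than on Day 2 in each experiment, and Tyms was lower again in eGFP++ cells, without a call by edgeR or DESeq2. For histone supply, Slbp, which binds histone mRNA, had 113.4, 107.2, 83.5, 110.5 and 77.2 CPM from Day 2 to Day 6 in the main experiment (83.7 in eGFP+, 30.97 in eGFP++) and 77.9, 94.98, 84.7, 118.98 and 96.96 CPM in the pilot (40.1 in eGFP++). The slope of Slbp was near 0, at -0.04 ± 0.08 per day (edgeR adjusted p = 0.847). Chaf1b, a subunit of the chromatin assembly factor that sets histones behind the fork, had 51.3, 35.5, 33.3, 40.5 and 20.6 CPM from Day 2 to Day 6 in the main experiment (15.7 in eGFP+, 7.46 in eGFP++) and 66.9, 50.7, 80.7, 49.6 and 16.9 CPM in the pilot (0.244 in eGFP++). Chaf1a, its largest subunit, had 21.004, 24.4, 23.1, 35.3 and 11.5 CPM from Day 2 to Day 6 in the main experiment (4.21 in eGFP+, 1.73 in eGFP++) and 16.4, 46.7, 36.2, 55.99 and 20.4 CPM in the pilot (8.19 in eGFP++). Both had their lowest level of each experiment in eGFP++ cells. DESeq2 called both lower there than on Day 4, and Chaf1b by slope, while edgeR called neither.

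Ung, the glycosylase that removes uracil from DNA, had the steepest fitted slope of the 46. It lay at 419.98, 217.02, 155.03, 111.1 and 18.04 CPM on Days 2 to 6 of the main experiment, 2.65 in eGFP+ and 0.0389 in eGFP++ cells, and 609, 309.9, 148.8, 251.1 and 54.9 CPM with 2.57 in eGFP++ cells of the pilot. The slope was -0.83 ± 0.14 log2 units per day (edgeR adjusted p = 0.00962), and both Day 6 sums lay below all earlier ones. Day 6 was 23.3-fold and 11.1-fold below Day 2 in CPM. In eGFP++ cells Ung also fell against Day 4 (edgeR adjusted p = 0.0146), where 2 and 42 reads were left of 7399 and 8964 on Day 4. After thinning to 10000 reads per cell it was read in 70.99% of Day 2 and 3.67% of Day 6 cells of the main experiment (all reads, 85.9% and 7.91%), and in 24.3% and 11.3% of pilot cells (all reads, 36% and 15.5%). Tipin, which protects stalled forks, had 113.3, 82.4, 68.4, 78.4 and 45.9 CPM from Day 2 to Day 6 in the main experiment (46.2 in eGFP+, 14.2 in eGFP++) and 45.8, 53.7, 76.5, 96.1 and 65.8 CPM in the pilot (21.6 in eGFP++). Between Day 2 and Day 6 Tipin was lower in the main experiment and higher in the pilot.

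Ccne1, the cyclin that activates Cdk2 at S phase entry, had 419.4, 234.9, 170.5, 146.8 and 105.5 CPM from Day 2 to Day 6 in the main experiment (23.9 in eGFP+, 61.8 in eGFP++) and 277.8, 230.6, 85.1, 170.1 and 127.9 CPM in the pilot (40.5 in eGFP++). It fell over Days 2 to 6 by 0.40 ± 0.10 on the log2 scale per day (edgeR adjusted p = 0.0375), and the sums of Day 2 exceeded those of Day 6. Ccne2, its paralog, was hardly read, at 0.256, 2.84, 0.733, 5.09 and 0.992 CPM from Day 2 to Day 6 in the main experiment (3.91 in eGFP+, 0.622 in eGFP++) and 0, 3.98, 0, 1.62 and 0.0623 CPM in the pilot (0 in eGFP++). Cdk2 itself lay at 3.07, 3.34, 2.93, 2.86 and 2.59 CPM from Day 2 to Day 6 in the main experiment (4.33 in eGFP+, 0.33 in eGFP++) and 76.8, 10.2, 18.1, 22.7 and 16.9 CPM in the pilot (3.24 in eGFP++). All pilot sums of Cdk2 without an eGFP label exceeded all its main sums. Cdca7, a target of E2F and Myc whose product works with a chromatin remodeller, lay at 267.9, 134.2, 238.7, 254.5 and 137.1 CPM on Days 2 to 6 of the main experiment, 102.1 in eGFP+ and 10.3 in eGFP++ cells, and 267.6, 122.5, 303.9, 193.6 and 88.8 CPM with 2.81 in eGFP++ cells of the pilot. Cdca7 was the 1 member called in eGFP++ cells against Day 6 (edgeR log2 change -4.15 ± 0.57, adjusted p = 0.0479, and 0.0716 without the experiment as a replicate block). Cdca7 also fell against Day 4 (-5.46 ± 0.61, edgeR adjusted p = 0.00446).

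In eGFP++ cells, 9 of the 46 members fell against Day 4 and none rose, where 0.989% of all genes were called lower and 0.585% higher. They were Cdc6, Cdca7, Mcm10, Mcm5, Mcm7, Orc1, Pcna, Pold1 and Ung. DESeq2 called 29 members lower (8.93% of all genes), among them Gins2, Mcm6, Prim1, Pola2, Rpa1, Rpa2, Lig1, Rrm2 and Tipin. The fitted change was negative in 44 members (55.9% of all genes), at a median of -2.68 against -0.30 over all genes. At an unadjusted p under 0.05 there were 35 members (15.3% of all genes). Against Day 6, edgeR called 1 member lower (0.0311% of all genes), DESeq2 called 15 (2.8%), and the unadjusted edgeR p was under 0.05 for 26 (6.29%). The fit was negative for 41 (62.4%), and the median was -1.93 against -0.52. Both eGFP++ sums lay below both Day 4 sums in 37 members (21% of all genes) and below both Day 6 sums in 30 (21.8%). The comparisons share the eGFP++ sums. Within the experiments, the median log2 ratio of CPM to Day 4 was -2.21 for 46 members in the main and -3.50 for 45 in the pilot, Ccne2 having no read in either pilot sum. Over all genes with a ratio the medians were -0.11 and -0.33. The lower quartiles of all genes were -1.395 and -3.42, so the pilot median of the members lay near that quartile. Without the main eGFP++ sum edgeR called 25 members lower (6.07% of all genes), and without the pilot Day 4 sum 5 (0.264%). Against Day 6 the call of Cdca7 was lost without the pilot eGFP++ sum or either Day 6 sum, and without the main eGFP++ sum 22 members were called lower (3.9% of all genes) and 1 higher.

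The pilot eGFP++ sum rests on 39 cells of 1 plate. Of the 30 members with at least 20 reads there, 20 took more than 50% of them from 1 cell, against 5 of 42 in the main eGFP++ sum and 0 of 45 in the main Day 2 sum. The 3 cells with most reads of the 46 genes gave 26.5% of these reads, and without them the summed level was 1318 instead of 1634 CPM. In 11 members with reads in the pilot eGFP++ sum, its level exceeded that of pilot Day 6. For 9 of them 1 cell gave 53.1% to 100% of the reads, namely Mcm2, Mcm4, Mcm6, Orc6, Gins3, Prim2, Rfc2, Rpa3 and Rrm1, and for Cdt1 and Fen1 1 cell gave 31.2% and 44.6%. The single eGFP+ plate, for which no test was run, had a summed level near that of main Day 6, at 2628 and 2629 CPM. Its reads came from 83 cells, fewer than on main Day 6, and were more concentrated: 1 cell gave more than 50% in 11 of the 44 members with at least 20 reads, among them Mcm10 at 83%, against 1 of 46 members on main Day 6. The 3 cells with most reads of the 46 genes gave 22.9% of them in eGFP+ and 12.4% on main Day 6. In eGFP+, 29 of 46 members were below and 17 above main Day 6, where 10501 of all 14423 genes with a ratio were below. The median log2 ratio was -0.51 for the members against -0.72 over these genes. Against the main eGFP++ sum, 37 of 46 members were higher, as were 4747 of all 13699 genes with a ratio. The medians were 1.21 and -0.58.

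**Figure D3:**
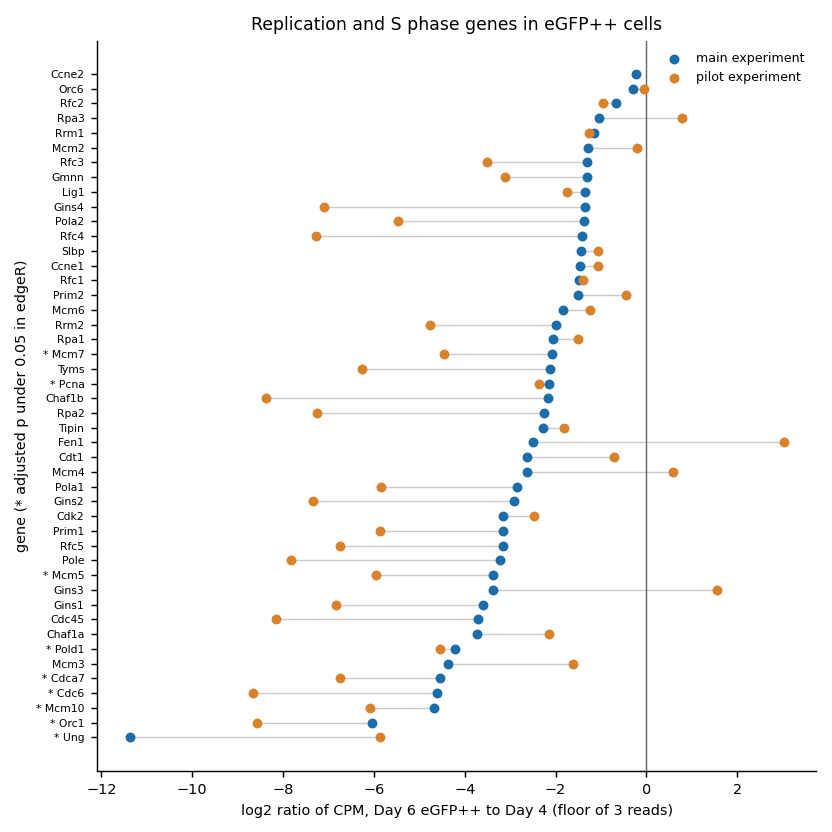
Log2 ratio of CPM, Day 6 eGFP++ to Day 4 (x axis), for each of the 46 genes (y axis, ordered by their main values), with a floor of 3 reads; points are the main (blue) and pilot (orange) experiments and stars mark the 9 genes called by edgeR. All 46 main points lie left of 0, as do 41 of the 45 pilot points (Ccne2 has none), the exceptions being Rpa3, Fen1, Mcm4 and Gins3.

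Single cells were compared after thinning each to 10000 reads, which left out 15 shallower cells. In the main experiment a cell held a median of 62, 51, 38, 45 and 10 reads of the 46 genes on Days 2 to 6, 9 in eGFP+ and 7 in eGFP++ cells. The pilot medians were 60.5, 61, 45, 53 and 13, with 12 in eGFP++ cells. The spread within Day 6 was wide: the quartiles were 5 and 28 reads for main cells and 6.5 and 40.5 for pilot cells, and the upper 10% of cells reached 60.7 and 67 reads, near the Day 2 medians. In eGFP++ cells the same limit was 20.8 and 36.2 reads. Reads from 5 or more members were found in 98.9% of main Day 2 cells (95% Wilson interval 97.1 to 99.6), 41.2% of main Day 6 cells (36.2 to 46.4), 28.9% of eGFP+ cells (20.3 to 39.4) and 20.9% of main eGFP++ cells (16.6 to 26.04). With all reads in place of 10000, these shares were 99.2%, 71.2%, 38.6% and 57.2%. In the pilot the shares were 90.5% (81.7 to 95.3), 49.3% (38.01 to 60.7) and 5.13% (1.42 to 16.9), and with all reads 97.3%, 88.7% and 69.2%. Genes detected per thinned cell moved differently in the 2 experiments, from 2171 to 1483 in the main and from 1003 to 1703 in the pilot between Day 2 and Day 6; their part in these shares was not tested. Intervals cover the counting of cells only, not the spread between plates or experiments, and cells are not replicates. Reads without molecular identifiers also include amplification copies.

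**Figure D4:**
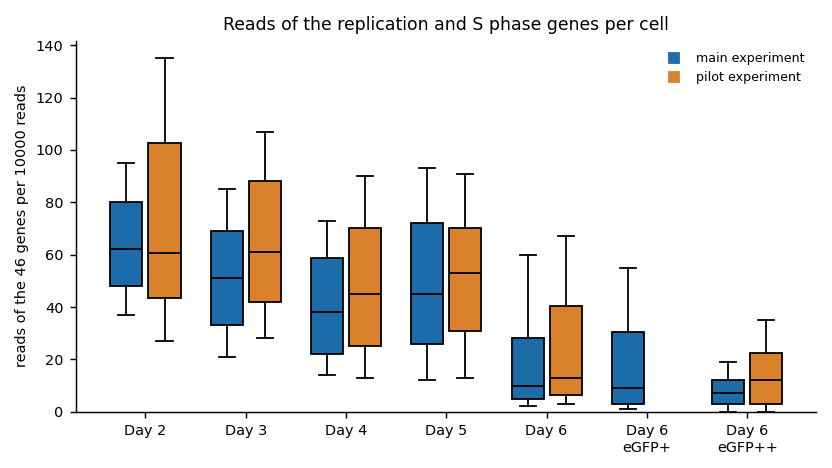
Reads of the 46 genes per cell after thinning to 10000 reads (y axis) by stage (x axis) in the main (blue) and pilot (orange) experiments; boxes span the quartiles, lines mark the medians and whiskers end at the outermost cells within the 10th and 90th percentiles. Medians lie between 38 and 62 on Days 2 to 5 and between 7 and 13 at Day 6, where the 90th percentiles of unlabelled cells are 60.7 and 67.

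Of single members, Pcna was read in 89.9%, 82.2%, 70.8%, 81.9% and 44.6% of thinned main cells on Days 2 to 6, in 33.7% of eGFP+ and in 24.8% of eGFP++ cells. In the pilot it was read in 59.5%, 52.2%, 45.6%, 74.7% and 39.4% of cells and in 5.13% of eGFP++ cells. With all reads, Pcna was found in 95.3% and 56.5% of main and 82.7% and 67.6% of pilot cells on Days 2 and 6. The slope of the share on the day, tested by exactly permuting the days inside each experiment (exact permutation test) and adjusted over 9927 genes, was called lower for 1 of 45 members with enough cells, Orc1, which lost 3.20 and 2.48 percentage points per day (exact permutation adjusted p = 0.0479). By this test 2.17% of all genes were called lower, and 12 of the 45 members had an unadjusted p under 0.05, near the share of all genes (25.3%). The median slope was -6.45 points per day in the main experiment and 0.14 in the pilot, so the shares moved differently in the 2 experiments.

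Across cells, the reads of the 46 genes were set beside those of 40 genes of G2 and mitosis. Spearman's rho was -0.22 and -0.23 in the main and pilot cells of Day 2 and -0.07 and -0.12 on Day 3. It was 0.27 and 0.05 on Day 4, 0.47 and 0.33 on Day 5, and 0.44 and 0.51 on Day 6. In eGFP+ cells it was 0.55 and in eGFP++ cells 0.21 and 0.13. On Day 2 the median main cell held 62 reads of the 46 genes and 65 of the G2/M genes, and on Day 6 it held 10 and 13. With 14 neuron genes, rho was 0.01 and 0.20 on Day 2 and -0.38 and -0.47 on Day 6, and with 12 neural progenitor genes it was 0.40 and 0.27 on Day 6. These are descriptions over cells that share plates and a fixed total of 10000 reads, with 39 to 75 cells in each pilot group and at least 83 in each main group, not tests.

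**Figure D5:**
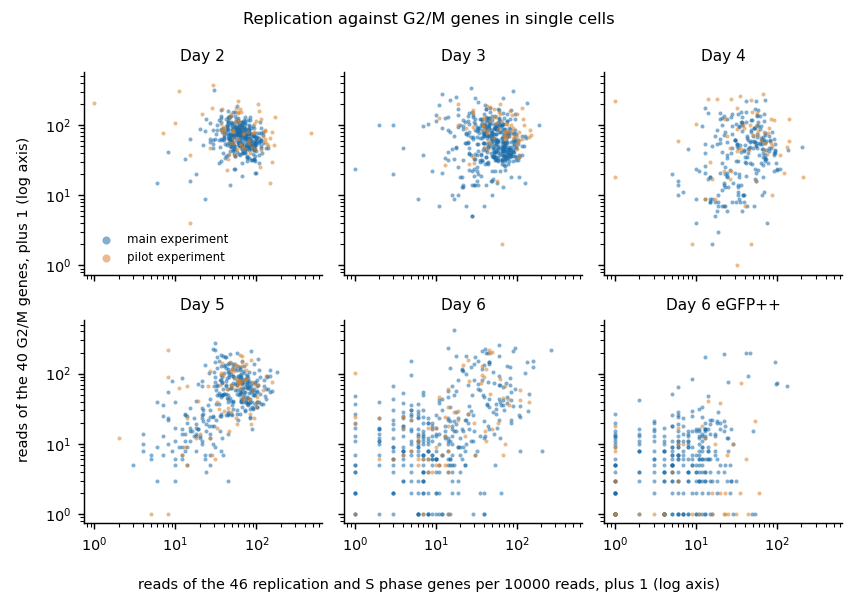
Thinned reads of the 46 replication and S phase genes (x axis) against those of 40 G2/M genes (y axis) in single cells, both plus 1 on log axes, for 6 stages in the main (blue) and pilot (orange) experiments. Points form 1 cloud on Day 2, where rho is -0.22 and -0.23, and spread towards the lower left on Day 6, where rho is 0.44 and 0.51.

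Members differed in how well they followed the rest of the 46 across cells. For each member, rho with the summed reads of the 45 others was taken within each group that had a read in at least 5% of cells. The median over groups was highest for Rrm2 (0.385), Gins2 (0.357), Pcna (0.353), Mcm7 (0.314) and Mcm5 (0.305), and lowest for Prim2 (0.0591), Gins4 (0.0722), Pola1 (0.0768) and Rfc1 (0.0868). It used 13 groups for Rrm2, Pcna, Mcm7 and Rfc1, 11 for Gins2, Mcm5 and Gins4, 9 for Prim2 and 8 for Pola1. Gins3 had 1 such group and Ccne2 had 0. How far rho depends on how often a member is read was not tested.

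The other replication genes on a fixed list were counted in the same way. Of 46 tested, 4 fell over Days 2 to 6 (Rif1, Dut, Dbf4 and Nasp) and none rose, with a median slope of -0.18. Of all genes, 2.21% were called lower by this slope, and the median over all genes was 0.02. Rif1, which times origin firing, and Dut, which degrades dUTP, had slopes of -0.45 ± 0.09 and -0.37 ± 0.08 (edgeR adjusted p = 0.0193 and 0.0262). Of 40 G2/M genes 6 fell and none rose over these days, with a median slope of -0.28, the same as that of the 46. Among 18 genes of the E2F family, pocket proteins and linked factors, 1 was called, Mybl2, which is neither an E2F nor a pocket protein. Mybl2, a partner in the complex that activates genes of mitosis, fell (-0.85 ± 0.12, edgeR adjusted p = 0.00422), at a list median of 0.10. Of 12 genes linked to cell cycle exit or encoding D cyclins, 5 rose (1.97% of all genes were called higher). Among them were Btg1 and the kinase inhibitors Cdkn2d and Cdkn1c (0.63 ± 0.11, 0.51 ± 0.10 and 0.71 ± 0.15, edgeR adjusted p = 0.0102, 0.0193 and 0.0247). The others were Gadd45g and the D cyclin Ccnd2. In eGFP++ cells against Day 4, this list had 2 calls, the D cyclins Ccnd1 and Ccnd2, both lower (0.989% of all genes). In the same comparison 14 of 40 G2/M genes, 11 of 46 other replication genes and 2 of the 18 E2F-linked genes were called lower. None of these 3 lists had a gene called higher. Their median changes were -3.53, -2.41 and -2.20, against -2.68 for the 46 members, so the fall was not particular to the members.

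The 46 genes lie on 16 chromosomes in GRCm38 (GENCODE M21), and 15 of them overlap exons of a gene on the other strand. In 11 (23.9%) a protein-coding gene starts on the other strand within 1000 bases of their own start, against 10.9% of all protein-coding genes. Mcm7 at chr5:138164583-138172422 also holds the microRNA genes Mir25 and Mir93, and Rpa1 at chr11:75298166-75348324 overlaps Gm47300 on the same strand. No source used here states whether counting used the strand, so reads of such overlaps could not be assigned with certainty. Among the 12 members that fell in at least 1 comparison, Orc1 overlaps exons of Gm12743 and Mcm7 those of Ap4m1 and Cops6 on the other strand. Of the 4 that fell over Days 2 to 6, Ung lies at chr5:114130386-114139323, Ccne1 at chr7:38097984-38107534, Mcm2 at chr6:88883474-88898780 and Mcm3 at chr1:20802968-20820312, and none of these overlaps exons of another gene.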

How the data were processed

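The authors deposited 1 table of raw read counts per gene and cell for each plate, and 35 tables were used; 1 further table, with 40 columns that could not be matched to samples, was not used. Per the submitters' processing notes, TopHat2 2.1.1 and HTSeq 0.6.1 were used with mm10; which step each ran, and the strand setting, are not stated there. The counts carry no molecular identifiers. Summary lines (34.9% of reads) and 27 names not spelled alike in all tables were left out. Columns were assigned to the day and experiment of their plate, not to a single cell's label, and no kept cell repeated another.

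Cells with at least 500 detected genes were summed per group and experiment. edgeR 4.0.16 in R 4.3.3 (limma 3.58.1) was run with filterByExpr, TMM scaling and group plus experiment as terms, with 5 residual degrees of freedom, or with the day and experiment, with 7. The edgeR adjustment ran over 16080 genes in the comparisons of groups and 15971 in the slope on the day, and that of the permutation test over 9927. DESeq2 1.42.0, spike-in scaling, other filters, thinning, counts of cells with a read, each experiment alone and leaving out each sum were alternatives. The scripts were tested on simulated data. Permutation tests used numpy 2.4.6 in Python 3.11.15 (with pandas 2.3.3), intervals and rho scipy 1.17.1, and figures matplotlib 3.10.9. Sums of the same experiment deviated together only weakly, with correlations of 0.0326 to 0.143 over 15 pairs of groups; the experiment was kept as a block because the labels define it.

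All members could be named; values in every sum are given for members called in a comparison and for up to 3 of each role with the highest mean CPM. Of the other lists, up to 3 genes with the smallest p of the slope were named. Nasp, Gadd45g, Ccnd1 and Ccnd2 were added after their values were seen. Members and lists were chosen with earlier results of these data known. Sequences came from RefSeq (GRCm38.p6) and positions from GENCODE M21.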

Additional observations from a re-analysis of the deposited data

Results flagged for a closer look

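Of the 4 groups with 4 or 5 plates, main Day 5 had 1 plate whose gap to the others was above Dixon's critical value in the summed level of the 46 genes. This lowest plate had 4875 CPM, while the other plates of that group lay between 5619 and 5747 CPM. Chance marks about 1 in 20 such groups.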

How the results depend on the processing

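No called result reversed its direction under the alternatives. With spike-in reads as library size, edgeR called 35 members lower on Day 6 than on Day 2 (12.6% of all genes; 0 members with TMM), 0 in eGFP++ cells against Day 6 (0.0%; 1), 15 against Day 4 (1.85%; 9) and 43 by slope (28.7%; 4). The median over all genes was then -2.05 for Day 6 against Day 2 and -0.52 per day by slope. DESeq2 called 9 (4.55% of all genes called lower), 15 (2.8%), 29 (8.93%) and 16 (7.18%) in these 4 comparisons. Thinned cells gave 4 (2.04%), 3 (0.264%), 24 (3.7%) and 8 (4.24%). Counting cells with a read gave 36 (18.6% of all genes called lower), 18 (2.33%), 39 (14%) and 30 (13.6%). It also gave 1 for Day 3 against Day 2 (4.65% of all genes) and 22 for Day 6 against Day 5 (1.52%). The main experiment alone, with plates as samples, gave 31 (12.3%), 21 (2.46%), 39 (9.67%) and 25 (13.2%), besides 1 (1.91%) and 6 (0.613%). The pilot alone gave a slope count of 0, where 17 of all 13208 genes were called lower. In eGFP++ cells against Day 6 the count was also 0 without the filter on low counts, with cells of at least 1000 genes, and without the plates that stand apart, an alternative chosen after seeing the data. Of all genes, 3 of 19096, 3 of 16044 and 2 of 16033 were called lower in these fits. When 1 sum was left out, the median change of the members in eGFP++ cells against Day 4 ranged from -3.74 to -2.28. Over all genes it ranged from -0.51 to 0.0018. The lone sum of a group was then assumed to vary like the other groups. The cause of these differences was not tested.

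Without the replicate block, the count against Day 6 was 0 instead of 1, and no other count crossed 1.5 times its main value. Per spike-in read, the log2 change of the summed level was -3.48 for Day 6 against Day 2 (-1.25 in CPM), -0.51 for Day 3 against Day 2 (-0.21), -0.97 for Day 4 against Day 3 (-0.30), -0.20 for Day 5 against Day 4 (0.23), -1.80 for Day 6 against Day 5 (-0.97), -0.59 for eGFP++ against Day 6 (-1.12) and -2.59 against Day 4 (-1.86). Without the plates that stand apart it was -0.19 for Day 4 against Day 3 and 0.0895 for Day 5 against Day 4. The calls of Cdc6, Cdca7, Mcm10, Pold1 and Ung against Day 4 held in all 14 alternatives, those of Pcna in 13, of Mcm5 and Mcm7 in 12 and of Orc1 in 11, and that of Cdca7 against Day 6 in 6 of 14. The slope of Ung held in 19 of 21, of Mcm2 in 14, of Mcm3 in 13 and of Ccne1 in 10. Each comparison rests on 2 sums per group, and the pilot eGFP++ sum on 39 cells.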
